A study of Caenorhabditis elegans with 2 samples.

Results

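The V1 sector of the vacuolar H+-ATPase was examined as a set of targets of the nuclear hormone receptor NHR-11 in Caenorhabditis elegans. The set held 8 genes of 19973 nuclear protein-coding genes, vha-8 to vha-15, and all 8 were found in the annotation. It was selected on earlier results of the same peak lists, in which vha-12 and vha-13 had thresholded peaks, so the values below are a description and carry no test. ChIP-seq, in which DNA held by a protein is pulled down and sequenced, was done on 2 biological replicates. Both came from whole L2 larvae of pooled sex of strain OP305, with genotype unc-119(ed3) III; wgIs305, in which NHR-11 carries an eGFP tag. The antibody is labelled nhr-11, and library fragments measured 150 to 350 bp. Both replicates are of 1 strain with 1 insertion. Binding in different tissues could not be told apart in whole larvae, and no untagged or mutant larvae were among the samples.

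The vacuolar ATPase is a rotary proton pump of lysosomes, endosomes and some cell surfaces. Its V1 sector lies in the cytosol and hydrolyses ATP, and its V0 sector sits in the membrane and carries the protons. In V1 a ring of A and B subunits holds the nucleotides, a central stalk of D and F subunits turns inside it, and E, G, C and H subunits form or attach to the outer stalks. In the worm the pump is known for its work in the excretory cell, the intestine and the hypodermis, and another nuclear hormone receptor, NHR-31, has been reported to control its genes in the excretory cell. Many worm messages are trans-spliced, so an annotated 5′ end can lie downstream of the place where transcription begins.

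Sequences are given for 4 member summits that contrast strong and weak peaks, each with 50 bases on either side of the summit and on the strand of the gene, from the RefSeq genome of build WBcel235 (ce11). The capital letter marks the summit base. The first is from a thresholded peak, and the second from one that fell just short of the threshold. The third was found in the pooled list and replicate 1 only, and the fourth was among the weakest peaks of the pooled list.
vha-12 (chrX:4190685-4190785, plus strand): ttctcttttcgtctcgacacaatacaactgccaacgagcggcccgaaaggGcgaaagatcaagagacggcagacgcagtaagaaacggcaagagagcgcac
vha-8 (chrIV:6790591-6790691, plus strand): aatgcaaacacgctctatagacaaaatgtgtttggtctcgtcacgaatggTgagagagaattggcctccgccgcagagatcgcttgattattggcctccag
vha-15 (chrX:2237686-2237786, plus strand): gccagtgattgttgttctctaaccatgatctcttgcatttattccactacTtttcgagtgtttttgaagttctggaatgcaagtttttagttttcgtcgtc
vha-11 (chrIV:2315225-2315325, minus strand): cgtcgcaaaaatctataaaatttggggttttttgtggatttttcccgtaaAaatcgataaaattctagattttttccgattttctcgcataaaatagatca

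G and C made up 53.5% of the vha-12 sequence, 48.5% of that of vha-8, 37.6% of that of vha-15 and 29.7% of that of vha-11. At the summit of the vha-13 peak, which lies in a 3′ UTR and is not printed, the share was 49.5%, and at that of vha-9 it was 38.6%. Over the 254 nuclear thresholded summits the median was 45.5%, with a lowest value of 21.8% and a highest of 71.3%. At the pooled summits, the 3 members with the highest pooled signal were thus above that median and the other 3 with a pooled peak below it. The strongest replicate peaks overlapping them did not keep this split. Their summit share was 44.6% and 27.7% for vha-8 in replicates 1 and 2, 44.6% for vha-12 in replicate 2 and 54.5% for vha-15 in replicate 1. The remaining ones stayed on the same side of the median as the pooled summit.

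Peaks were taken from 4 lists on build ce11. The thresholded list, which passed the irreproducible discovery rate (IDR) procedure, held 280 peaks, and the unthresholded list of the pooled replicates held 13299. The unthresholded lists of the separate replicates held 25831 peaks for replicate 1 and 27015 for replicate 2. Each peak has a signal value from the authors' caller, with medians of 34.6, 10.6, 5.63 and 4.15 in these 4 lists. Signal ranks peaks within a list, and values from different lists are on different scales. A gene was counted as having a peak when a summit fell in its 5′ window, which ran from 1000 bp ahead of any annotated transcript start to 500 bp past it. The lists carry no read counts, so the depth of either replicate is unknown.

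The thresholded list held 2 of the 8 V1 genes, vha-13 and vha-12, where the same rule found 160 genes in all, or 0.801% of nuclear protein-coding genes. In the pooled list 6 of 8 had a peak, against 24.7% of all genes. All 8 had one in replicate 1 and 6 in replicate 2, against 40.4% and 39.7% of all genes. A peak in both replicates was found for 6 of 8, namely vha-8, vha-9, vha-10, vha-11, vha-12 and vha-13, against 21.4% of all genes. Since the set was chosen from these lists, nothing is read from the first of these shares, and the others come from the same libraries. By chromosome, the share of genes with a thresholded peak was 0.915% on X, where vha-12 and vha-15 lie, and 0.481% on V, where vha-13 lies.

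**Figure D1:**
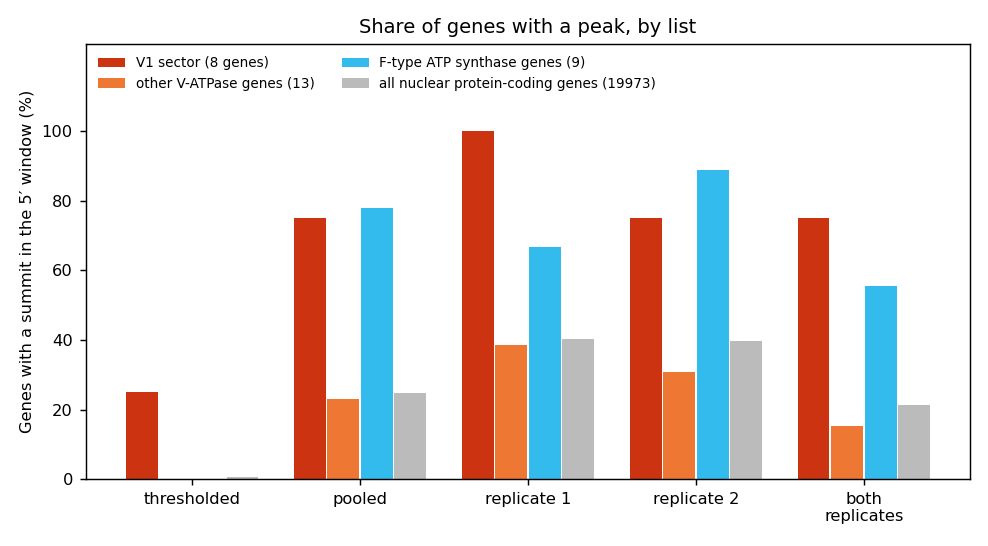
Percent of genes with a peak summit in the 5′ window (vertical axis) in each list (horizontal axis), for the 8 V1 genes, 13 other vacuolar ATPase genes, 9 mitochondrial ATP synthase genes and all 19973 nuclear protein-coding genes. V1 genes stand at 25% in the thresholded list and 75% in the pooled list, and all genes at 0.801% and 24.7%.

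The catalytic ring was represented by both of its genes. vha-13 encodes the A subunit, which hydrolyses ATP. Its peak (V, 14350904 to 14351333) had a signal of 34.3 in the pooled and thresholded lists, 18.1 in replicate 1 and 14.5 in replicate 2. It ranked 142 of 280 thresholded peaks, 259 in replicate 1 and 188 in replicate 2, and so stood among the strongest 280 peaks of either replicate. The summits of the replicates lay 28 bp and 1 bp from the pooled summit. That summit was 590 bp upstream of vha-13, inside the 3′ UTR of the neighbouring gene cept-2, which runs on the same strand and ends 227 bp ahead of vha-13. Replicate 2 listed 2 further summits in the vha-13 window, at ranks 5523 and 8360, and replicate 1 a further one within the gene at rank 7024.

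vha-12 encodes the B subunit, the non-catalytic partner of A in the ring. Its peak (X, 4190520 to 4190949) had a signal of 29.0 in the pooled and thresholded lists, 15.3 in replicate 1 and 7.53 in replicate 2. The ranks were 229 of 280 in the thresholded list, 456 in replicate 1 and 2388 in replicate 2. The peak was therefore high in replicate 1 and much further down the list of replicate 2. Its summit was 359 bp upstream of the gene in intergenic sequence, with no annotated gene within 3000 bp ahead of vha-12 (piRNA genes not counted), and the replicate summits lay 32 bp and 72 bp away from it. Neither the vha-13 nor the vha-12 peak was in the 5′ window of another protein-coding gene. The vha-13 summit did lie within 500 bp of the 3′ end of cept-2. Over the 160 genes with a thresholded peak the strongest summit was upstream of the 5′ end for 91.9%, at a median position of -301 bp and with an interquartile range from -547 to -152 bp.

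vha-8 stood just outside the threshold. It encodes the E subunit of the outer stalks. The lowest signal in the thresholded list was 27.4, and the highest pooled signal below it was also 27.4, while the vha-8 peak (IV, 6790426 to 6790855) had 26.5 at pooled rank 309. Its minus log10 q was 2.31, against 2.77 for every thresholded peak. In replicate 1 it was the strongest V1 peak, with a signal of 21.9 at rank 134 and a summit 24 bp from the pooled one. The overlapping peak of replicate 2 had a signal of 7.66 at rank 2240, with its summit 248 bp away and 185 bp upstream of vha-8. The pooled summit was 433 bp upstream of vha-8 and lay between it and C17H12.2, a gene on the opposite strand. The body of C17H12.2 begins 586 bp ahead of vha-8, and the same peak was in its own 5′ window. The summit was nearer to the 5′ end of C17H12.2 than to that of vha-8. With each peak given only to its nearest 5′ end, vha-8 had no pooled peak.

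The other outer stalk genes had weaker or less repeatable peaks. vha-15 encodes the H subunit, which bridges V1 and V0 and holds ATP hydrolysis in check when they part. It had a pooled signal of 15.1 at rank 1955, with an intergenic summit 175 bp upstream, and a replicate 1 signal of 13.5 at rank 719. Replicate 2 listed no peak in its window. vha-10, which encodes the G subunit, had none in its 5′ window in the pooled list. Its window held a replicate 1 summit 305 bp upstream with a signal of 7.11 at rank 6835. This summit lay in the 3′ UTR of trpp-8, a gene on the same strand that ends 104 bp ahead of vha-10. The window also held a replicate 2 summit in an intron 182 bp downstream, with a signal of 9.69 at rank 853. Replicate 2 also had a weaker summit 66 bp upstream, with a signal of 3.82 at rank 15876, in a peak that overlapped the replicate 1 one. Within this window the strongest peak of each replicate was thus on a different side of the 5′ end, and stronger peaks of both lay past the 3′ end of the gene, as given with the 3′ ends.

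vha-11 encodes the C subunit, which joins the outer stalks to the membrane sector. Its pooled peak had a signal of 8.46 at rank 12842 of 13299, and the overlapping peaks had signals of 6.47 in replicate 1 (rank 9069) and 3.14 in replicate 2 (rank 22059). Replicate 1 also had a summit 52 bp upstream with a signal of 8.10 at rank 4496. vha-11 begins 893 bp beyond the 3′ end of vha-3, a V0 gene on the same strand. A stronger pooled peak, with a signal of 22.1 at rank 568, lay ahead of both genes, 995 bp upstream of vha-3 and 2373 bp upstream of vha-11. Its summit was in the 5′ UTR of Y38F2AL.12, which runs the other way.

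The central stalk genes had weak peaks only. vha-9, for the F subunit, had a pooled signal of 10.2 at rank 7549, with 5.95 in replicate 1 (rank 11284) and 4.50 in replicate 2 (rank 11320). Its pooled summit was 977 bp upstream, near the edge of the window, in a coding exon of gcy-4 and 81 bp from a tRNA gene. vha-14, for the D subunit, had a single peak in its 5′ window, in replicate 1, with a signal of 4.14 at rank 24052 of 25831, and none there in the pooled list or replicate 2. vha-9 thus ranked near the middle of each list and vha-14 near the bottom of its one list, while stronger peaks lay elsewhere on the vha-14 gene. A pooled summit in an intron, 1147 bp past its 5′ end, had a signal of 12.8 at rank 3566, and its counterpart in replicate 1 ranked 3127. Replicate 2 listed no peak that overlapped this pooled peak. vha-9 was the only member whose best 5′ peak lay within 500 bp of a gene for a miRNA, tRNA, rRNA, snoRNA or snRNA. Genes annotated only as ncRNA were not counted here, and 1 of these, C17H12.33, ends 738 bp ahead of vha-8.

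**Figure D2:**
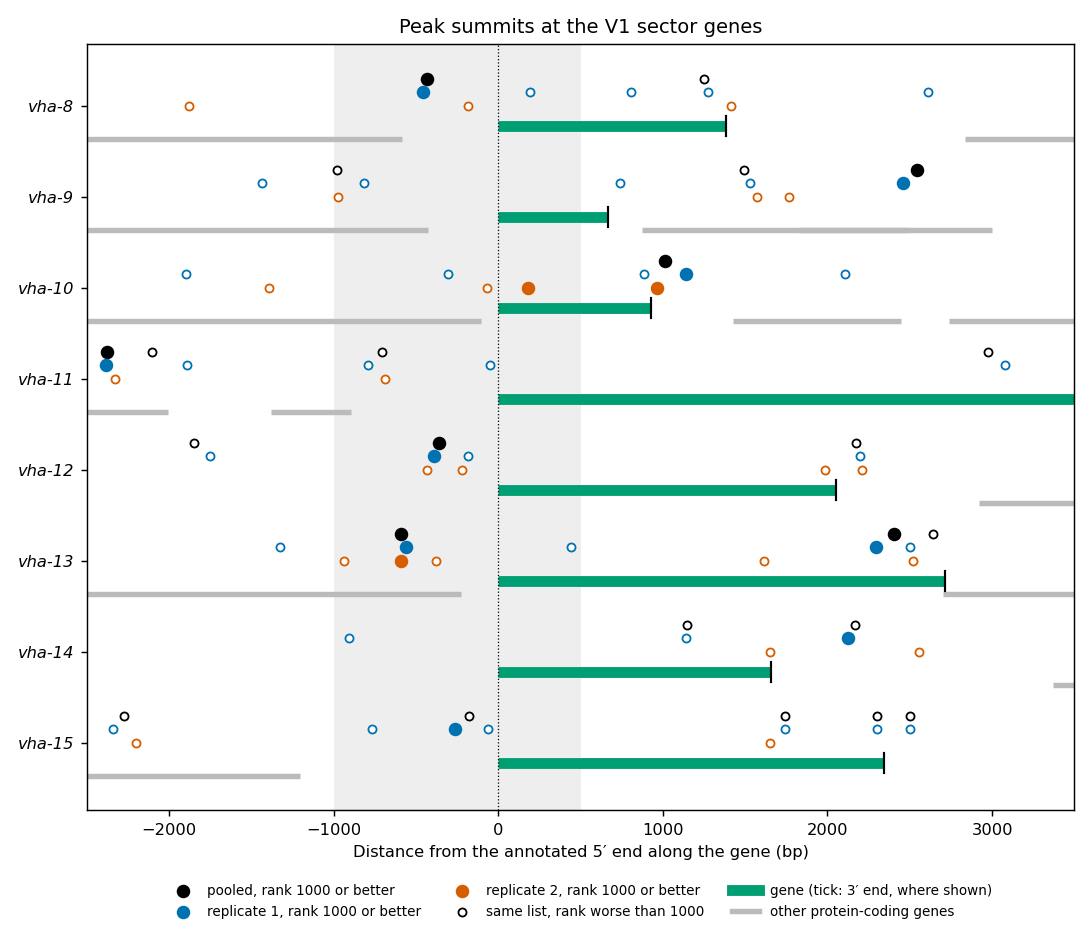
Peak summits at the 8 V1 genes, with distance from the annotated 5′ end along the gene in bp on the horizontal axis and 1 gene per row. Black, blue and orange points are summits of the pooled list, replicate 1 and replicate 2, filled where the rank is 1000 or better; the shaded band is the 5′ window. In the band, filled points of all 3 lists stand together only at vha-13.

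Ranks of the strongest peak in each window summarise these values. Among the 6 V1 genes with a pooled peak the median rank was 1132, against 5666 for all 4927 genes with one. In replicate 1 it was 2608 for 8 V1 genes against 10642 for 8060 genes, and in replicate 2 it was 2314 for 6 V1 genes against 10760 for 7923 genes. The set was chosen with the peaks of vha-12 and vha-13 known, and both genes enter each of these medians. The medians are therefore partly set by that choice, and nothing is read from their distance to those of all genes. Counted among genes, vha-13 was 81st, vha-12 127th and vha-8 178th of the 4927. The members spread over almost the whole pooled list, since vha-11 was 4819th.

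**Figure D3:**
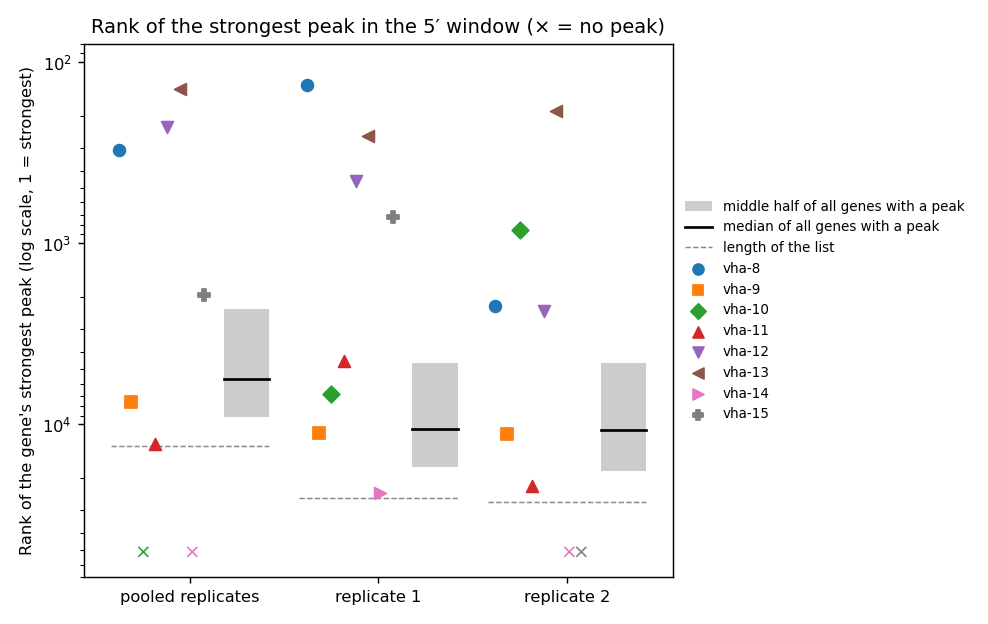
Rank of the strongest peak in the 5′ window of each V1 gene (vertical axis, log scale, 1 is the strongest) in the pooled, replicate 1 and replicate 2 lists. Grey boxes and lines are the interquartile range and median of all genes with a peak, dashed lines the length of each list, and crosses genes with no peak; vha-13 ranks 142, 259 and 188, and vha-9 and vha-11 rank behind the median of all genes in the pooled list.

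Of the 6 member peaks in the pooled list, 5 were overlapped by at least 1 bp by a peak of each replicate, the exception being vha-15. Over all 5158 pooled peaks in a 5′ window, 2762 were (53.5%). For thresholded peaks in a 5′ window it was 123 of 126 (97.6%), so the overlap at vha-12 and vha-13 is what nearly all such peaks show.

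**Figure D4:**
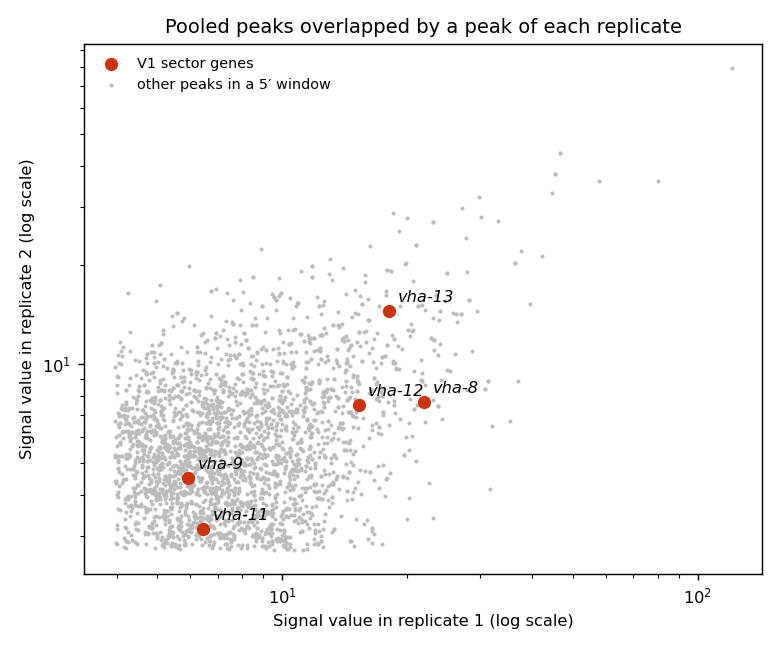
Signal value in replicate 1 (horizontal axis) and replicate 2 (vertical axis), both on log scales, for pooled peaks in a 5′ window that a peak of each replicate overlaps. Red points are the 5 V1 genes and grey points the others; vha-13 has 18.1 and 14.5, and vha-8 has 21.9 and 7.66.

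The genes with the most similar ranks were found by the distance between log10 ranks over the pooled and both replicate lists, across 3042 other genes with a peak in all 3. The pooled list is made from the replicates, so the 3 ranks are not independent. Nearest to vha-13 were C04C11.25 (distance 0.0591, ranks 160, 276 and 191 in the pooled, replicate 1 and replicate 2 lists), nfm-1 (0.129; 170, 318 and 167) and plrg-1 (0.182; 130, 283 and 126). Nearest to vha-12 were set-16 and drr-2, which share 1 peak (0.157; 199, 341 and 2025), and aka-1 (0.199; 323, 532 and 3102).

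Summits also lay around the 3′ ends of V1 genes, which the choice of the set did not use. This window of 500 bp on either side of an annotated 3′ end was added after the positions had been seen. A thresholded peak lay there for 1 of 8 V1 genes, against 0.421% of all genes. A pooled peak did for 5 of 8 (vha-8, vha-10, vha-12, vha-13 and vha-15), against 16.2%, and peaks of both replicates did for 5 of 8, with vha-14 in place of vha-15, against 11.8%. The pooled summits at vha-10 and vha-13 were also in the 5′ window of the next gene, and those at vha-8, vha-12 and vha-15 were in none.

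The thresholded one was 85 bp past the end of vha-10, with a signal of 28.4 at rank 248, and the peaks beside it had signals of 15.8 in replicate 1 (rank 419) and 17.8 in replicate 2. It was thus stronger in both replicates than any peak at the 5′ end of vha-10, and in replicate 2 stronger than the 5′ peak of any V1 gene. It also falls in the 5′ window of ubl-5, a gene on the same strand that encodes a ubiquitin-like protein and begins 1429 bp from the 5′ end of vha-10. At vha-13 a pooled summit with a signal of 22.5 at rank 531 lay 307 bp ahead of the 3′ end, in the 3′ UTR and in the window of Y49A3A.3, and the strongest replicate peaks near that end ranked 714 in replicate 1 and 10960 in replicate 2. At vha-12 it lay 123 bp past the end with a signal of 16.8 at rank 1388, at vha-8 133 bp before the end at rank 2642, and at vha-15 42 bp before the end at rank 3466. A pooled summit 508 bp past the end of vha-14, just beyond the limit used, had a signal of 14.5 at rank 2281, and the replicate 1 summit beside it ranked 185. The replicate 2 peak that overlapped it ranked 5599, with its summit 900 bp past the end. Past vha-15, a pooled summit 1453 bp beyond the 3′ end had a signal of 24.5 at rank 395, with counterparts at ranks 702 in replicate 1 and 798 in replicate 2. In the pooled list it was stronger than the peaks at vha-15 itself. In replicate 1 its signal was close to that of the vha-15 5′ peak, at 13.6 against 13.5 (rank 719). Replicate 2 listed no peak in the vha-15 5′ window to set beside it. The pooled summit stood next to the 3′ end of rpl-11.2, a ribosomal protein gene on the opposite strand, and was in the 5′ window of no protein-coding gene.

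The other 13 vacuolar ATPase genes, 10 of the V0 sector and vha-18 (a relative of vha-15), vha-19 and vha-20, had no thresholded peak. Of all genes 0.801% had one, so a count of 0 among 13 is close to that share. In the pooled list 3 of the 13 had a peak, or 23.1%, against 24.7% of all genes. In both replicates 2 of them had one, or 15.4%, against 21.4%. Pooled rank was best for vha-1, a proteolipid gene, with a signal of 23.8 at rank 435, rank 264 in replicate 1 and no peak in replicate 2. Next came vha-3, also a proteolipid gene, by the peak described above. The a subunit genes unc-32, vha-6 and vha-7 had no 5′ peak in any list, and vha-5, the remaining a subunit gene, had a pooled rank of 6663. Around their 3′ ends, 7 of the 13 had a pooled peak, or 53.8%, against 16.2% of all genes, and none had a thresholded one, against 0.421%. The difference between the 8 V1 genes of the set and these 13 genes, which include the vha-15 relative vha-18, was not tested. A pooled peak around the 3′ end was not particular to the vacuolar ATPase. In the related lists taken up next, 5 of 9 mitochondrial ATP synthase genes had one (55.6%). So did 6 of 24 lysosomal genes and 2 of 8 genes that tie TORC1 to the lysosome (25% each).

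Related lists had no thresholded peak in any member, against 0.801% of all genes, a share at which lists this short mostly hold none. Of 9 genes of the mitochondrial ATP synthase, a rotary enzyme of the same descent, 7 had a pooled peak (77.8%, against 24.7% of all genes), led by atp-2 (beta subunit, rank 294) and atp-1 (alpha subunit, rank 431). Pooled peaks were found for 9 of 24 lysosomal genes (37.5%), led by cpl-1 (a cathepsin L, rank 648) and scav-3 (rank 1601). They were also found for 3 of 8 genes that tie TORC1 to the lysosome (also 37.5%), led by flcn-1 (folliculin, rank 2639) and lmtr-3 (a Ragulator subunit, rank 5362), and for rbc-2 (rabconnectin, rank 1865) but not rbc-1. The lmtr-3 peak was also that of atp-5, with the same rank and signal, so it was counted in the ATP synthase list too. The median pooled rank was 3033 for the ATP synthase genes, 5877 for the lysosomal genes and 5362 for the TORC1 genes, against 5666 for all genes with a peak. For the 3 other vacuolar ATPase genes with a pooled peak it was 568, the rank of the vha-3 peak, against 1132 for the 6 V1 genes. The replicates gave the opposite order. In replicate 1 the median was 13306 for 5 of the other genes, against 2608 for 8 V1 genes. In replicate 2 it was 5138 for 4 of them, against 2314 for 6 V1 genes.

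A search for 8 short motifs, on both strands and within 500 bp upstream of the 5′ end, found few in V1 genes. The GATA factor site TGATAA was in 3 of 8 (vha-9, vha-13 and vha-15) and in 43.7% of such windows over all genes. AAGTCA was in vha-14 alone and in 21.6% of all windows, and GGGCGG in vha-9 alone and in 10.9%. AGGTCA and AGTTCA, core hexamers of nuclear receptor sites, were in none, against 12.8% and 31.1%. None held CACGTG, the E-box core (8.61% of all windows), the longer TCACGTGA that contains it (0.976%) or the POU factor octamer ATTTGCAT (4.65%). None of the 8 motifs was within 50 bases of the strongest pooled summit of any of the 6 members that had one, while 0.787% to 6.69% of the nuclear thresholded summits held each of them. The absence of these letters says nothing on whether a factor binds there.

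Which members counted as having a thresholded peak depended on the replicate. With the 280 strongest peaks of replicate 2 alone only vha-13 was left, and with those of replicate 1 alone vha-13 and vha-8 were. With 500 bp upstream in place of 1000 bp, vha-12 was the only one, since the vha-13 summit lies further out. Among the 140 strongest thresholded peaks there was none, and among the 1000 strongest pooled peaks there were vha-8, vha-12 and vha-13.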

How the data were processed

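Peak lists on build ce11 were used as deposited. Per the notes deposited with the samples, the authors called peaks and background on the alignment of each replicate and of both together against a control alignment, then derived the thresholded list by IDR. Neither the aligner nor the caller is named in the sources used here, and control alignments were not analysed. The signal value and minus log10 q-value of each peak are the authors', and their scaling to depth or control is not stated. No peak ended past its chromosome in the RefSeq WBcel235 genome. Lists on build ce10 were not used here.

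Summits were assigned to 5′ ends of the Ensembl 115 annotation with Python 3.11.15, pandas 2.3.3 and numpy 2.4.6. In a test on simulated data, 107 of 107 summits planted in a window were found at the planted distance and 0 of 93 planted outside it were assigned. Coordinates are 1-based. Members, gene lists and motifs were chosen with earlier results of these data known. Of the genes listed, 1 lysosomal name, ostm-1, was not in the annotation. The text names all members, genes sharing or nearest to their peaks, the best ranked of related lists and the 3 genes most alike in rank; neighbours of the 3′ peaks and several V0 genes were named after their values were seen. There was 1 group, so no test between groups was possible, and with unknown depth no interval is given.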

Additional observations from a re-analysis of the deposited data

How the results depend on the processing

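Of 72 recomputed values, 56 stayed within 1.5 times the main count or, for the share of all genes, within its 95% Wilson interval. Some of these could not have moved, so the tally is not a measure of stability. No list held a nuclear region more than once, so counting repeated regions once changed nothing. Each member has 1 annotated 5′ end position, so taking the most upstream one could not change the member counts. The V1 genes with a thresholded peak, 2 in the main setting, numbered 1 with 500 bp upstream and 0 among the 140 strongest peaks, and 1 to 2 when either replicate was left out, which is not a repeat of the IDR step. Those with a pooled peak, 6 in the main setting, numbered 3 with 500 bp upstream and 5, without vha-8, with nearest 5′ ends only. With 500 bp upstream, those with a replicate 1 peak numbered 6, against 8. Those with a replicate 2 peak numbered 4, against 6, as did those with a peak in both replicates. The share of all genes was recomputed for thresholded peaks only, so these counts have no share of all genes beside them. Other vacuolar ATPase genes with a thresholded peak, 0 in the main setting, numbered 2 among the 1000 strongest pooled peaks and 0 to 1 with a replicate left out. The share of all genes with a thresholded peak was 0.596% with 500 bp upstream, 1.14% with 2000 bp and 0.616% with nearest 5′ ends only. It was 0.951% with peak intervals in place of summits, 0.401% among the 140 strongest and 2.95% among the 1000 strongest pooled peaks. With a replicate left out it was 0.786% to 0.791%. At summits in place of promoters, members with TGATAA numbered 0, those with AAGTCA 0 and those with GGGCGG 0. Of the 2 alternatives for 3′ ends, both added after the data were seen, 250 bp kept 5 members, against 10.4% of all genes, and leaving out peaks in a 5′ window left 3 (vha-8, vha-12 and vha-15), against 9.89% of all genes. No paired analysis was possible because there was 1 group. Unknown depth limits how far a missing peak, as at vha-15 in replicate 2, can be read.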
